A study of Mus musculus with 18 samples.

Results

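The genes described here are 42 mouse genes of the antioxidant, glutathione and NRF2 system, chosen by name as all genes of a list of glutathione synthesis enzymes and transferases, NRF2 targets, peroxidases and pentose phosphate enzymes. The bead arrays held 75 probes for 39 of them. Gsr, Prdx6 and G6pdx had no probe with a single gene symbol, and the probes of Ugdh and Gpx3 did not pass the filter on dim probes, which left 37 genes among 18128 features tested. Single-colour Illumina arrays measured total RNA of immortalised mouse embryonic fibroblasts, written wt where the cells were wildtype and KO where they were jnk1-/-jnk2-/-, in the BL6/129/Sv strain background. Both lines came from embryos of stage E10.0 and were immortalised by the 3T3 protocol. All cells grew on inserts in a medium with serum, insulin, hydrocortisone, cholera toxin and epidermal growth factor, before (day 0) or during transwell co-culture with differentiating primary human keratinocytes, with inserts changed every second day. Each genotype had 1 array for day 0, 2 for each of days 2 and 4, and 4 for day 6, 18 in all, each with RNA of 1 to 3 pooled inserts. As each genotype was 1 line, a genotype difference cannot be told apart from a difference between lines, and the p-values reflect only how far the arrays of those inserts scattered.

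NRF2, encoded by Nfe2l2, is a transcription factor that binds antioxidant response elements together with small MAF proteins, and KEAP1 holds it in the cytoplasm and targets it for degradation until oxidants or electrophiles modify KEAP1. Its targets reduce quinones, import cystine for glutathione synthesis, conjugate electrophiles to glutathione and regenerate thioredoxin and peroxiredoxin, while the pentose phosphate pathway supplies the NADPH these reactions use. JNK1 and JNK2 are stress kinases that phosphorylate Jun, a subunit of the transcription factor AP-1, whose binding site resembles the antioxidant response element. The comparison of KO with wt asks which of these genes differ in fibroblasts that lack both kinases, and the comparison of days asks how they change once keratinocytes are present.

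Promoter sequence from RefSeq (build GRCm38.p6) was available for 34 of the 42 genes, in 42 windows because some genes have several starts. The 250 bases before each annotated start were searched on both strands for TGACNNNGC, the core of the antioxidant response element, and for TGANTCA, the AP-1 site, which can overlap each other. The first motif was in 9 of the 42 windows, of 9 genes, against 10.2% of all 32851 windows, and the second in 4 of the 42, of 4 genes, against 6.75%. Of the genes with the first motif, 4 were higher and 1 was lower in KO in the genotype comparison below, 2 were not past its threshold and 2 were not tested. For the second motif the counts were 2 higher, 1 lower and 1 not past the threshold. In the same comparison 37.9% of all features passed, 20% higher and 18% lower. Neither motif was in the windows of Nqo1, Cbr1, Slc7a11, Gstt1 or Sod2, which says only that these letters are not in these stretches. Hmox1, Aldh3a1, Abcc1, Gclc, Gsr, Gsta4, Prdx6 and Sod3 had no entry. The stretches of the next 2 genes are shown because both neighbouring transferase genes were higher in KO and fell from day 0 to day 2, and capitals mark their longest shared run, of 29 bases. Over 261 aligned columns the 2 stretches were identical in 70.5%.
Gsta1, chr9:78230419-78230668, plus strand: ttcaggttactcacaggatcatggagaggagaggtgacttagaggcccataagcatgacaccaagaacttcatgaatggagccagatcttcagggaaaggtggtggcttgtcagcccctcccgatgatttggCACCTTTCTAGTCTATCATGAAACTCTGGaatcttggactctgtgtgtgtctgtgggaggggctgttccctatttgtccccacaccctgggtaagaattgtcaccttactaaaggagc
Gsta2, chr9:78347146-78347395, minus strand: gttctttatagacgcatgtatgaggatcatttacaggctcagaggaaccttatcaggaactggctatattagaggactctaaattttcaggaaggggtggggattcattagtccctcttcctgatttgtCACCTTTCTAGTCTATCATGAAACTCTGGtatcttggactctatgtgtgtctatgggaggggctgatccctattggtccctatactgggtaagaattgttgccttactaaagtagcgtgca
The stretches of the following 4 genes are shown because they hold a motif in genes that went in different directions. Capitals mark TGANTCA in Srxn1 and Mgst2 and TGACNNNGC in Prdx1 and Gclm, and in Prdx1 the capitals also contain TGANTCA.
Srxn1, chr2:152105402-152105505, plus strand: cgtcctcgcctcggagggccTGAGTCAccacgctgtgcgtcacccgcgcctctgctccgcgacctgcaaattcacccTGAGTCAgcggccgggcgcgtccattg
Prdx1, chr4:116685446-116685494, plus strand: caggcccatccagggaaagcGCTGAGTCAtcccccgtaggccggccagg
Gclm, chr3:122245403-122245451, plus strand: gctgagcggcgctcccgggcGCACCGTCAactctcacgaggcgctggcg
Mgst2, chr3:51661107-51661153, plus strand: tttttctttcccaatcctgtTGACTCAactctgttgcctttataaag
Srxn1 held the AP-1 site at 102 and 45 bases before its start. It was lower in KO by the probe read here, while its other 2 probes did not pass. Prdx1 held an antioxidant response element core 133 bases before its start, which contains an AP-1 site. Another AP-1 site lay 237 bases before the Prdx1 start, outside the stretch shown. Prdx1 was higher in KO by the probe read here and lower by a second probe. Gclm and Mgst2 were also higher, both calls lost under median scaling.

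The targeted gene Mapk9, which encodes JNK2, read 10.07 to 10.49 in wt and 4.51 to 5.60 in KO on the log2 scale. Mapk8, which encodes JNK1, read 5.44 to 6.47 in wt and 5.71 to 6.36 in KO. The position of its probes relative to the deletion was not used here, so this probe does not check the label. By the form of their detection p-values the arrays fell into 2 processing sets. The second set was 6 arrays (replicates 2, 3 and 4 of day 6 in both genotypes), with mean intensities of 581 to 653 and 44.9% to 45.8% of probes detected, against 392 to 482 and 37.3% to 40.8% in the other 12. Of 12 fibroblast markers, all passed the filter, 10 were detected on all 9 wt arrays and 9 on all 9 KO arrays. Thy1 was detected on 8 wt arrays and no KO array and Col1a2 on 9 and 1, whereas Lum was detected on 3 and 8. The summed linear signal of the 12 fibroblast markers was 20632 to 46993 in wt and 16952 to 43920 in KO. Among markers of other cell types, 6 of 12 for keratinocytes, 4 of 6 for endothelium, 3 of 7 for macrophages and 1 of 5 for hepatocytes passed the filter. The summed signal of the macrophage list was 564 to 1879 in wt and 346 to 552 in KO. Cd14 was detected on 9 wt and 9 KO arrays, Csf1r on 5 and 6, and Adgre1 on 2 and 1. The endothelial list summed to 334 to 964 in wt and 379 to 675 in KO. Egfl7 was detected on 9 wt and 9 KO arrays, Cdh5 on 3 and 2, Kdr on 2 and 2 and Tek on 1 and 1. The hepatocyte gene Serpina1a was detected on 3 wt and 2 KO arrays. The keratinocyte list summed to 733 to 1048 in wt and 574 to 1008 in KO. Krt10 was detected on 9 wt and 9 KO arrays, Krt5 on 1 array of each genotype, and Ivl on 9 wt arrays and 1 KO array. The other way, Krt14 and Krt1 were detected on no wt array and on 3 and 4 KO arrays, and Trp63 on 2 wt and 6 KO arrays. The part of these differences in the results below was not tested.

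Over the mean of days 2, 4 and 6, KO fibroblasts carried more mRNA of alpha-class glutathione transferases and of the aldehyde dehydrogenase Aldh3a1, and less of the quinone reductase Nqo1, the carbonyl reductase Cbr1, the cystine transporter Slc7a11 and the mitochondrial superoxide dismutase Sod2. The largest differences were Nqo1 at -4.28 and Aldh3a1 at 4.19 on the log2 scale, 2 enzymes listed as NRF2 targets, in opposite directions. Of the 37 genes tested, 23 passed an adjusted p of 0.05, 14 higher and 9 lower in KO, where 37.9% of all features passed (20% higher and 18% lower). All tests were limma's moderated test with Benjamini-Hochberg adjustment over all features, given below with the standard error (SE) and the adjusted p. The median log2 difference was 0.13 over the 37 genes and 0.03 over all features, and the median absolute difference was 0.42 against 0.25. The wt and KO arrays of days 2, 4 and 6, 8 of each, did not overlap for 13 of the 37 genes, 6 higher and 7 lower, against 17.3% of all features (8.69% higher and 8.58% lower). With each array scaled to the same median in place of quantile normalization, 13 of the genes passed, 6 higher and 7 lower. There, 25.3% of all features passed, 9.56% higher and 15.8% lower. That scaling moved the share of higher calls from 60.9% to 46.2% among the genes and from 52.7% to 37.7% among all features. With the processing set as a block 26 passed, and within the first set 24, counts whose shares of all features are not given here.

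**Figure D1:**
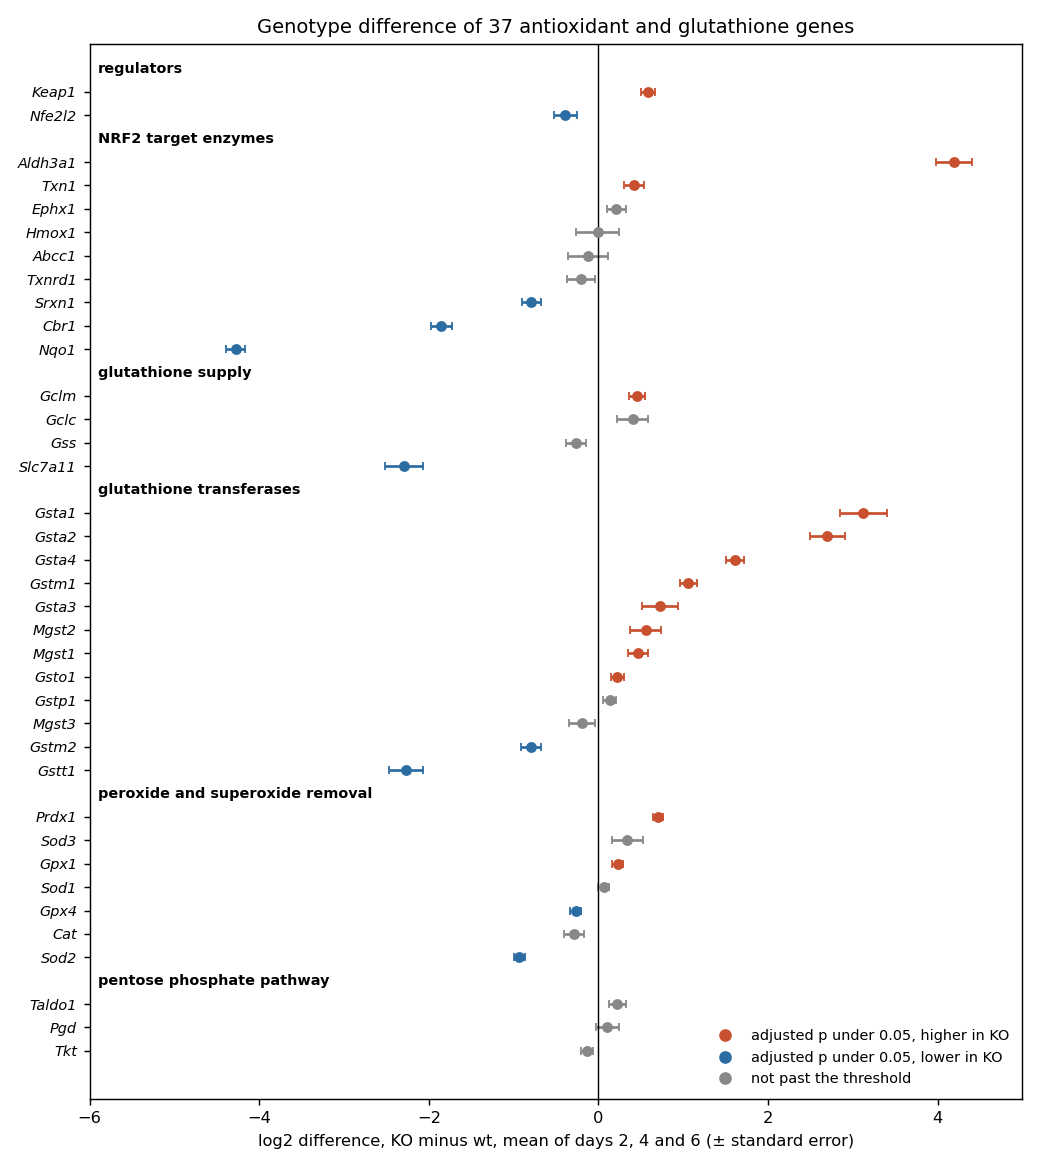
Log2 difference between KO and wt over the mean of days 2, 4 and 6 for each of the 37 genes, grouped by role, with bars of 1 standard error and colour for the direction of those past the adjusted p of 0.05. Aldh3a1 at 4.19 and Gsta1 at 3.12 lie farthest to the right and Nqo1 at -4.28 farthest to the left, and the transferases hold 8 of the 14 genes higher in KO.

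At the single days, 19 genes passed at day 6 (11 higher and 8 lower, where 28.4% of all features passed, 14.8% higher and 13.7% lower). At day 4, 14 passed (8 and 6, where 19.1% of all features passed, 9.79% higher and 9.28% lower), and at day 2, 14 passed (7 and 7, where 20% passed, 9.97% higher and 10% lower). Between day 6 and day 2 the genotype difference changed for 0 of the 37 genes and 0 of all features by limma, with 2 of the 37 at an unadjusted p under 0.05. At day 6 the 4 arrays per genotype did not overlap for 17 of the genes, 9 higher and 8 lower, against 25.5% of all features (13.2% higher and 12.3% lower). With the replicate number as a block, 21 genes passed at day 6, where 31.7% of all features passed (16.5% higher and 15.2% lower). Hmox1 (-0.31, adjusted p = 0.0454) and Cat (-0.43, adjusted p = 0.0133) were added, both lower in KO. Over days 2, 4 and 6 the block gave 26, where 41.1% of all features passed (21.8% higher and 19.3% lower). Gclc, Cat and Taldo1 were added there (adjusted p = 0.0446, 0.0185 and 0.0161). Day 0 had 1 array per genotype and no test. There, 13 of the 37 genes differed by at least 1 on the log2 scale, as did 15.7% of all features. Of the 23 genes past the threshold during co-culture, 11 had a day 0 difference of the same sign. The share over all features past the threshold is not given here. Several of these single-array differences lay near 0, so their sign says little, among them Gpx4 at 0, Mgst1 at -0.003 and Prdx1 at -0.02. Keap1, of the same sign, was at 0.08.

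The 2 regulators went opposite ways, both by little. In wt, Nfe2l2 read 7.94 before co-culture, 8.03 and 8.24 on day 2, 7.95 and 8.00 on day 4 and 8.25, 8.30, 8.15 and 8.33 on day 6. In KO it read 7.97 before co-culture, 7.80 and 7.49 on day 2, 7.48 and 7.66 on day 4 and 7.42, 8.35, 8.32 and 7.85 on day 6. The KO arrays lay below the wt arrays at days 2 and 4, and at day 6 replicates 2 and 3 of KO lay among or above them. Nfe2l2 was lower in KO by 0.39 on the log2 scale over days 2, 4 and 6 (log2 difference -0.39, SE 0.14, adjusted p = 0.0279 by limma). That call was lost under median scaling and when replicate 2 of wt or KO at day 2, either wt array of day 4 or replicate 1 of KO at day 4 was left out (adjusted p up to 0.0984). At day 6 the difference was -0.83 in the first processing set and -0.09 in the second. In wt, Keap1 read 10.08 before co-culture, 9.86 and 9.93 on day 2, 9.84 and 9.96 on day 4 and 9.80, 9.75, 9.80 and 9.62 on day 6. In KO, Keap1 read 10.16 before co-culture, 10.43 and 10.49 on day 2, 10.63 and 10.55 on day 4 and 10.49, 10.27, 10.25 and 9.95 on day 6. Its groups overlapped over the co-culture only through KO replicate 4 of day 6, and Keap1 was higher in KO by 0.59 (SE 0.09, adjusted p = 1.45e-05 by limma), which median scaling took to an adjusted p of 0.0726. Of the 5 Keap1 probes, 4 were higher and the fifth, detected on 3 arrays, gave -0.31 and did not pass.

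Among the 9 NRF2 target enzymes tested, 2 were higher and 3 lower in KO, where 20% of all features were higher and 18% lower. Nqo1, which reduces quinones with NAD(P)H, read 12.74 in wt before co-culture, 11.02 and 11.15 on day 2, 10.87 and 10.97 on day 4 and 10.75, 11.08, 10.49 and 10.64 on day 6. In KO, Nqo1 read 7.89 before co-culture, 6.83 and 6.60 on day 2, 6.55 and 6.95 on day 4 and 6.28, 6.57, 6.29 and 6.66 on day 6. The highest KO array lay below the lowest wt array. The co-culture difference was -4.28 (SE 0.11, adjusted p = 2.69e-16), a 19.4-fold lower signal. A second probe, detected on 5 arrays, was lower at -0.74. The day 0 arrays, without keratinocytes, differed by -4.84.

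Aldh3a1, which oxidises aldehydes, went the other way. It read 11.65 in wt before co-culture, 9.83 and 9.93 on day 2, 9.93 and 9.96 on day 4 and 10.21, 8.36, 8.73 and 8.30 on day 6. In KO, Aldh3a1 read 13.14 before co-culture, 13.90 and 13.90 on day 2, 14.04 and 13.78 on day 4 and 13.87, 13.40, 13.13 and 13.57 on day 6. All KO arrays were above all wt arrays, with a day 0 difference of 1.49 and a co-culture difference of 4.19 (SE 0.21, adjusted p = 4.07e-12), or 18.3-fold. At day 6 the difference was 3.67 in the first set and 4.90 in the second, whose 3 wt arrays were the lowest.

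Cbr1, a carbonyl reductase, read 9.95 in wt before co-culture, 9.56 and 9.51 on day 2, 9.56 and 9.58 on day 4 and 9.45, 10.10, 10.25 and 10.24 on day 6. In KO, Cbr1 read 7.51 before co-culture, 7.76 and 7.72 on day 2, 7.69 and 7.59 on day 4 and 7.89, 8.48, 8.24 and 8.12 on day 6. It was lower in KO in the co-cultured arrays without overlap, at -1.85 (SE 0.12, adjusted p = 3.24e-10) during co-culture and -2.44 at day 0. Srxn1, the sulfiredoxin that reactivates overoxidised peroxiredoxins, read 11.22 in wt before co-culture, 9.84 and 9.67 on day 2, 9.82 and 9.83 on day 4 and 9.82, 10.18, 9.96 and 10.39 on day 6. In KO, Srxn1 read 9.92 before co-culture, 8.85 and 8.88 on day 2, 9.06 and 9.28 on day 4 and 8.96, 9.21, 9.25 and 9.63 on day 6. The co-cultured groups did not overlap, and Srxn1 was lower in KO at -0.79 (SE 0.11, adjusted p = 7.06e-06). Its other 2 probes gave -0.08 and -0.36 and did not pass. Txn1, thioredoxin, was higher in KO at 0.42 (adjusted p = 0.00782), a call lost under median scaling. Hmox1, which degrades haem, was at -0.01 (adjusted p = 0.988), and the values of Txnrd1, Ephx1 and Abcc1 lay between -0.21 and 0.21 without passing.

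**Figure D2:**
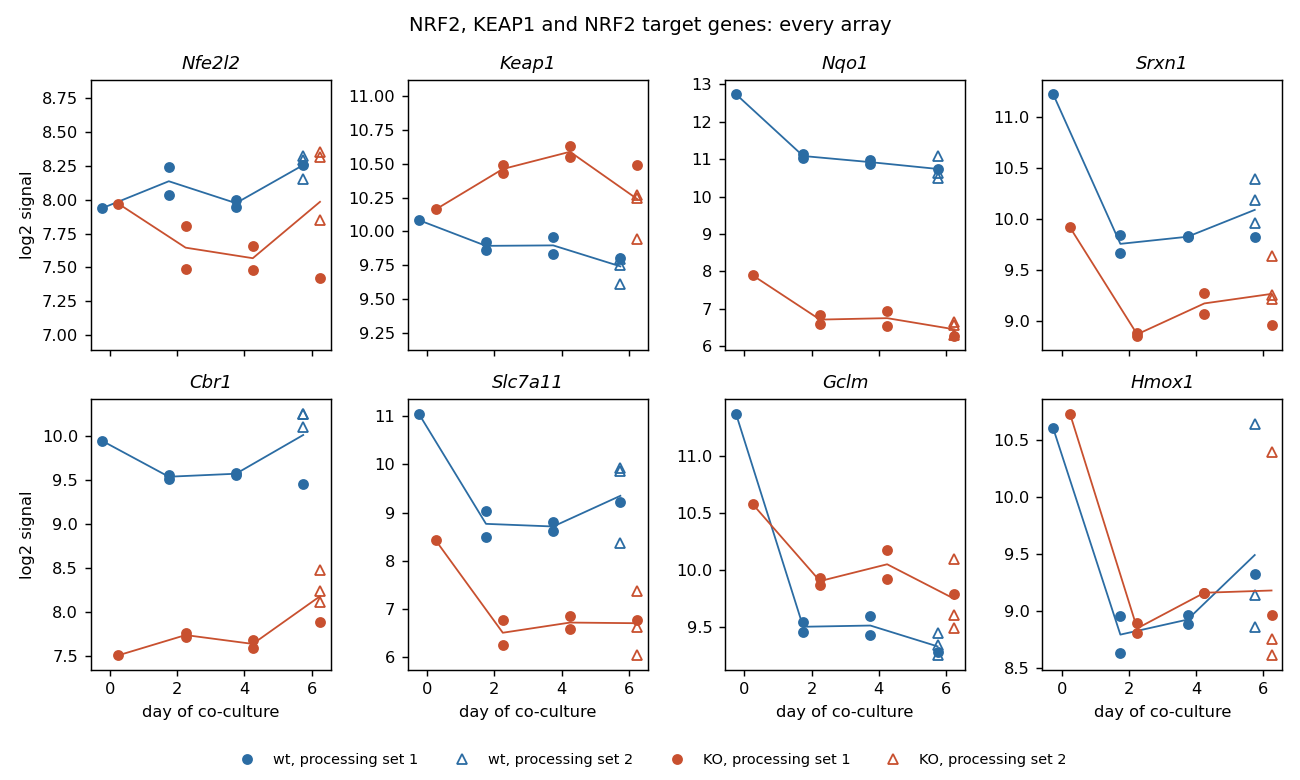
Log2 signal of 8 genes against the day of co-culture, with 1 point per array, set slightly left for wt and right for KO of its day, a line through the group means, wt in blue and KO in red, and open triangles for the second processing set. Nqo1, Srxn1, Cbr1 and Slc7a11 lie lower in KO on every day shown, Gclm crosses over between day 0 and day 2, and the Hmox1 points of the genotypes lie close together, with replicate 4 of day 6 high in each.

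Of the glutathione supply genes, 1 was higher and 1 lower in KO among 4 tested, where 20% of all features were higher and 18% lower. Slc7a11, the cystine and glutamate exchanger that imports cystine for glutathione, read 11.05 in wt before co-culture, 9.03 and 8.50 on day 2, 8.63 and 8.80 on day 4 and 9.23, 9.93, 8.38 and 9.87 on day 6. In KO, Slc7a11 read 8.43 before co-culture, 6.77 and 6.25 on day 2, 6.59 and 6.85 on day 4 and 6.77, 6.63, 6.04 and 7.38 on day 6. The co-cultured KO arrays all lay below the wt ones, with a difference of -2.30 (SE 0.22, adjusted p = 6.57e-08), and the day 0 difference was -2.62. Among its 4 probes past the filter, a second was lower at -0.71 and the other 2, each detected on 4 arrays, gave -0.21 and -0.09 and did not pass. Gclm, the modifier subunit of glutamate-cysteine ligase, was higher in KO at 0.45 (SE 0.10, adjusted p = 0.000699), a call lost under median scaling. Its catalytic partner Gclc was at 0.40 without passing (adjusted p = 0.094), with no wt array of days 2 and 4 above background, and glutathione synthetase, Gss, was at -0.26 (adjusted p = 0.0836).

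The glutathione transferases, which attach glutathione to electrophiles, held 8 genes higher and 2 lower in KO among 12 tested, where 20% of all features were higher and 18% lower, with a median log2 difference of 0.51. Under median scaling 4 were higher and 2 lower, where 9.56% of all features were higher and 15.8% lower, with a median of 0.35. Gsta1 read 11.46 in wt before co-culture, 5.73 and 6.06 on day 2, 5.08 and 5.80 on day 4 and 5.50, 5.61, 5.70 and 4.54 on day 6. In KO, Gsta1 read 10.62 before co-culture, 8.88 and 9.01 on day 2, 9.08 and 9.63 on day 4 and 9.02, 6.59, 7.85 and 7.51 on day 6. The order of the genotypes was thus turned, with wt above KO by 0.84 on the lone day 0 arrays and below it on every co-cultured array. The co-culture difference was 3.12 (SE 0.27, adjusted p = 1.54e-08), an 8.72-fold higher signal in KO, and all 3 Gsta1 probes were higher (2.55 to 3.65). At day 6 it was 3.51 in the first set and 2.04 in the second, where the KO arrays were lower. The probe read here was detected on 7 of 9 wt arrays, not on wt replicate 1 of day 4 or replicate 4 of day 6. The co-cultured wt level and the fold thus lie near the detection limit.

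Gsta2 read 10.74 in wt before co-culture, 6.05 and 5.61 on day 2, 4.94 and 5.21 on day 4 and 5.25, 5.55, 5.18 and 5.02 on day 6. In KO, Gsta2 read 10.01 before co-culture, 8.32 and 8.30 on day 2, 8.00 and 8.78 on day 4 and 8.04, 6.73, 8.21 and 7.23 on day 6. It had the same turn. Its fitted co-culture difference was 2.70 (SE 0.20, adjusted p = 1.81e-09), or 6.49-fold higher in KO. No wt array of day 4 detected it. Raising those arrays to the lowest detected signal did not change the value, so the bound equals the fitted fold. Gsta1 and Gsta2 are close paralogs and the probe sequences were not used here, so signal shared between them cannot be told apart. Gsta4, known for conjugating lipid-derived aldehydes, read 11.72 in wt before co-culture, 8.60 and 8.91 on day 2, 9.03 and 9.0 on day 4 and 8.43, 8.10, 8.71 and 8.21 on day 6. In KO, Gsta4 read 11.38 before co-culture, 10.39 and 10.52 on day 2, 10.27 and 10.54 on day 4 and 10.22, 10.04, 10.25 and 9.91 on day 6. The co-cultured groups did not overlap, at a difference of 1.61 (SE 0.10, adjusted p = 1.82e-10), against -0.34 at day 0.

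Gsta3 lay near the detection limit. In wt, Gsta3 read 6.36 before co-culture, 4.19 and 4.97 on day 2, 4.63 and 4.30 on day 4 and 4.40, 5.30, 4.59 and 5.22 on day 6. In KO, Gsta3 read 4.64 before co-culture, 5.31 and 4.63 on day 2, 5.24 and 5.75 on day 4 and 5.71, 5.91, 4.98 and 5.94 on day 6. The groups overlapped, and the signal in KO was at least 1.49-fold higher (adjusted p = 0.00887), as no wt array of days 2 and 4 detected it. That call was lost under median scaling (adjusted p = 0.0627). Gsta3 lies on chromosome 1, whereas Gsta4, Gsta1 and Gsta2 lie on chromosome 9 in a row that runs Gclc, Elovl5, Fbxo9, Cilk1, Gsta4, Gsta1 and Gsta2. Between Gclc and Gsta4, Elovl5 differed by 0.52 and Cilk1 by 0.79 (adjusted p = 3.44e-05 and 4.95e-06) and Fbxo9 by -0.19 without passing, so genes outside the family differed in this stretch too.

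Among the mu-class genes, which adjoin each other on chromosome 3, the 2 members went opposite ways. Gstm1 read 10.84 in wt before co-culture, 10.69 and 10.98 on day 2, 10.84 and 10.88 on day 4 and 10.49, 10.46, 10.44 and 10.74 on day 6. In KO, Gstm1 read 10.49 before co-culture, 11.90 and 11.82 on day 2, 11.95 and 11.89 on day 4 and 11.56, 11.999, 11.75 and 11.21 on day 6. It was higher in KO by 1.06 during co-culture (SE 0.10, adjusted p = 5.64e-08), with no overlap, and differed by -0.34 on the day 0 arrays. Its second probe gave 0.47 and did not pass (adjusted p = 0.0762). Gstm2 read 12.39 in wt before co-culture, 13.17 and 13.38 on day 2, 13.26 and 13.16 on day 4 and 12.92, 12.68, 12.89 and 12.97 on day 6. In KO, Gstm2 read 10.40 before co-culture, 12.32 and 12.36 on day 2, 12.56 and 12.52 on day 4 and 12.49, 12.47, 11.92 and 11.46 on day 6. The co-cultured KO arrays were lower, at -0.80 (SE 0.12, adjusted p = 2.62e-05), without overlap, and the day 0 difference was -1.99. All 3 Gstm2 probes were lower. Gstm4, next in the row and not on the list of 42, was at -0.20 without passing. Other mu-class genes off that list were higher in KO. Gstm5 was at 0.57 (adjusted p = 0.000446), Gstm6 at 0.61 (0.0391) and Gstm7 at least 4.56-fold higher (7.44e-08).

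The theta-class gene Gstt1 read 6.37 in wt before co-culture, 7.90 and 7.84 on day 2, 7.65 and 7.41 on day 4 and 7.68, 7.22, 7.94 and 7.51 on day 6. In KO, Gstt1 read 4.36 before co-culture, 4.98 and 4.76 on day 2, 5.05 and 6.13 on day 4 and 6.13, 6.05, 5.72 and 4.95 on day 6. Every co-cultured KO array was below every wt array, at -2.27 (SE 0.20, adjusted p = 1.75e-08), or 4.82-fold lower. Gstt1 was detected on 9 of 9 wt arrays and 6 of 9 KO arrays, so its KO level and the fold lie near the detection limit. Of the membrane-bound transferases, Mgst1 was higher at 0.46 and Mgst2 at 0.56 (adjusted p = 0.00351 and 0.0186), both lost under median scaling, and Mgst3 was at -0.20 without passing. Mgst2 also lost its call without replicate 2 of wt or of KO at day 2 or day 4 (adjusted p up to 0.0702), and at day 6 it differed by 0.87 in the first set and -0.05 in the second. Gsto1 was higher at 0.22 (adjusted p = 0.033), a call lost in 13 of 29 alternatives. Gstp1 was at 0.13 without passing by the probe read here, while a second probe was higher at 0.29 (adjusted p = 0.0327) and the remaining one gave 0.28 without passing.

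**Figure D3:**
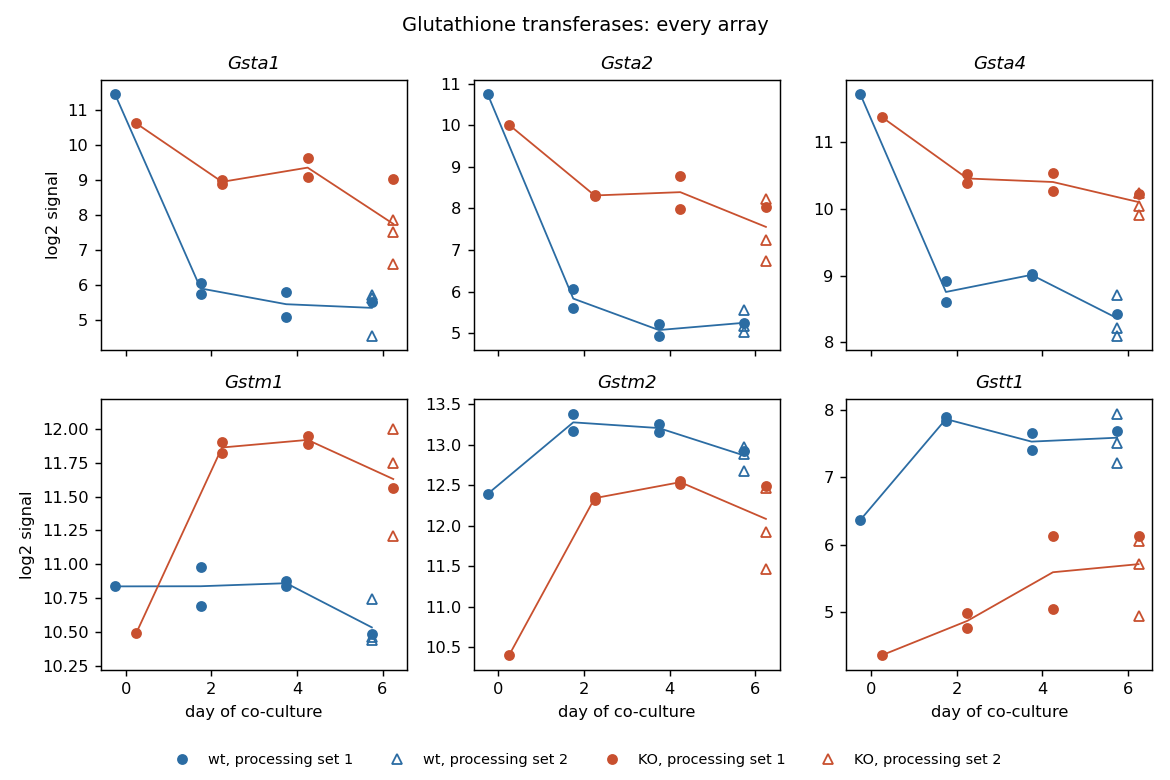
Log2 signal of 6 glutathione transferase genes against the day of co-culture, with 1 point per array, set slightly left for wt and right for KO of its day, a line through the group means, wt in blue and KO in red, and open triangles for the second processing set. Gsta1, Gsta2 and Gsta4 start close together at day 0 and part by day 2, Gstm1 in KO lies at 10.49 on day 0 and at 11.82 and 11.90 on day 2, and Gstm2 and Gstt1 lie lower in KO on every day.

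Of the 7 genes for peroxide and superoxide removal, 2 were higher and 2 lower in KO, where 20% of all features were higher and 18% lower. Sod2, the mitochondrial superoxide dismutase, read 12.22 in wt before co-culture, 13.46 and 13.24 on day 2, 13.50 and 13.46 on day 4 and 13.72, 13.80, 13.81 and 13.72 on day 6. In KO, Sod2 read 12.28 before co-culture, 12.48 and 12.55 on day 2, 12.54 and 12.66 on day 4 and 12.69, 12.68, 12.51 and 12.81 on day 6. The day 0 arrays were alike, at a difference of 0.06, and the co-cultured arrays did not overlap, at -0.94 (SE 0.07, adjusted p = 5.79e-10). Prdx1, a peroxiredoxin, read 14.03 in wt before co-culture, 13.38 and 13.44 on day 2, 13.63 and 13.44 on day 4 and 13.56, 13.75, 13.64 and 13.56 on day 6. In KO, Prdx1 read 14.01 before co-culture, 14.18 and 14.14 on day 2, 14.24 and 14.16 on day 4 and 14.24, 14.37, 14.31 and 14.33 on day 6. By this probe Prdx1 was higher in KO at 0.70 (SE 0.06, adjusted p = 9.74e-09), without overlap. A second probe, detected on all 18 arrays, was lower at -1.12 (SE 0.16, adjusted p = 8.99e-06), so the direction of Prdx1 depends on the probe. Gpx1, a glutathione peroxidase, was higher at 0.23 and Gpx4, which reduces lipid hydroperoxides, was lower at -0.27 (adjusted p = 0.00762 and 0.00166), both lost under median scaling, Gpx1 also within the first set. Catalase (Cat) at -0.29, Sod1 at 0.06 and Sod3 at 0.34 did not pass. None of the 3 pentose phosphate genes tested passed by limma, with 1 of them at an unadjusted p under 0.05. Taldo1 was at 0.22 and Tkt at -0.13, while Pgd was not above background on any wt array and was detected on 2 of 9 KO arrays, so its difference was not measured.

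Of 87 other genes of the pathway, 44 passed over days 2, 4 and 6, 18 higher and 26 lower, where 37.9% of all features passed (20% higher and 18% lower). The 12 with the largest differences included 3 higher and 9 lower genes. Gpx7, a peroxidase of the endoplasmic reticulum, was at least 28.6-fold lower in KO and Msrb2, a mitochondrial methionine sulfoxide reductase, at least 14.1-fold lower, both detected on all 9 wt arrays and on 0 of 9 KO arrays. Ugt1a7c, a glucuronosyltransferase, was at least 10.5-fold lower, and the selenium carrier Selenop was at -3.16. Cbr3, a second carbonyl reductase, was at -2.50, the glutathione turnover enzyme Ggct at -2.64, Gstt3 at -2.34, the esterase Esd at -2.05 and the aldehyde dehydrogenase Aldh2 at -1.57. Higher in KO were Alox5ap, the leukotriene synthesis protein of the microsomal transferase family (at least 13.2-fold), the mu-class gene Gstm7 (at least 4.56-fold) and Chac1, which degrades glutathione (1.47). Of the theta-class genes, Gstt1 and Gstt3 were lower and Gstt2 was at -0.29 without passing (adjusted p = 0.198). Adjusted p by limma was at most 6.48e-06 for these 12.

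Over the first co-culture interval the alpha-class transferases Gsta1, Gsta2 and Gsta4 and several NRF2 target and glutathione supply genes fell. From day 0 to day 2, averaged over wt and KO, 16 of the 37 genes passed by limma, 4 higher and 12 lower, where 9.55% of all features passed (5.58% higher and 3.97% lower). Each genotype had a single day 0 array, whose spread was taken from the replicated groups. Without day 2 arrays of fibroblasts kept alone, these changes cannot be assigned to the keratinocytes. The median log2 change was -0.25 over the 37 genes and 0.01 over all features. Gsta1 fell by 3.62, Gsta2 by 3.31, Gsta4 by 1.95 and Slc7a11 by 2.10 on the log2 scale (log2 changes -3.62, -3.31, -1.95 and -2.10, adjusted p at most 0.00141). Hmox1 changed by -1.85, Nqo1 by -1.42, Gclm by -1.27 and Srxn1 by -1.26 (adjusted p at most 0.00852). Smaller falls were those of Txnrd1 (-0.93), Gss (-0.71), Gsto1 (-0.46) and Gpx1 (-0.36), at adjusted p of 0.0238 to 0.0398. Gstm2 rose by 1.41, Mgst1 by 0.99, Gstm1 by 0.69 and Sod2 by 0.69 (adjusted p at most 0.0137). All 3 of the glutathione supply genes that passed fell, as did all 4 of the NRF2 target enzymes that passed, and the regulators Nfe2l2 and Keap1 did not pass (-0.06 and 0.05). Gsta3 was at -0.72 without passing (adjusted p = 0.212). Under median scaling 2 supply genes and 1 target enzyme fell, where the share of all features is not given here. Among the 87 other pathway genes 12 rose and 7 fell.

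For 19 of the 37 genes the 5 co-cultured arrays of the first processing set lay on 1 side of the day 0 array in both genotypes, 5 above and 14 below, against 25.6% of all features (12.9% and 12.7%). Hmox1 in replicate 4 of day 6, an array of the second set, read 10.64 in wt and 10.40 in KO, near the day 0 values of 10.61 and 10.73, while the other day 6 arrays read 8.61 to 9.33. Under median scaling 7 genes passed from day 0 to day 2, 1 higher and 6 lower, a count whose share of all features is not given here. Within the first set 22 passed, 7 higher and 15 lower, where 20.4% of all features did (10.6% higher and 9.74% lower).

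In wt alone 9 genes passed between day 0 and day 2, 1 higher and 8 lower, where 2.92% of all features passed (2.1% higher and 0.816% lower), and in KO alone 9 passed, 4 higher and 5 lower, where 4.53% passed (2.91% higher and 1.62% lower). Within the first set 23 passed in wt (5 higher and 18 lower, where 10.5% of all features passed, 5.9% higher and 4.59% lower) and 18 in KO (7 and 11, where 16.3% passed, 9.05% higher and 7.21% lower). Leaving out either KO array of day 2 took the count in KO to 2, where the share of all features is not given here. Gsta1 changed by -5.56 in wt (SE 0.64, adjusted p = 3.41e-05), a 47.3-fold fall, and by -1.67 in KO, where it did not pass. Gsta2 changed by -4.91 in wt and -1.70 in KO, and Gsta4 by -2.97 and -0.92 (adjusted p = 5.28e-07 and 0.036). Gclm changed by -1.87 in wt and -0.68 in KO, the latter without passing. Nqo1 (-1.65 and -1.18), Slc7a11 (-2.28 and -1.92) and Srxn1 (-1.47 and -1.05) passed in both genotypes, and Hmox1 was at -1.81 and -1.89 without passing in either. Sod2 passed in wt at 1.13 and was at 0.24 in KO without passing, and Gstm1 passed in KO at 1.37 and did not pass in wt (adjusted p = 0.999). Prdx1 passed in wt at -0.62, and Gstm2, Mgst1 and Ephx1 in KO at 1.94, 1.16 and 0.93.

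The test of the difference between these changes was passed by 1 gene, Gsta4, whose change was less negative in KO by 2.04 on the log2 scale (SE 0.34, adjusted p = 0.0133), where 0.237% of all features passed (0.121% higher and 0.116% lower). The call was lost without wt replicate 1 of day 2 (adjusted p = 0.0756), without KO replicate 2 of day 2 (0.0652) and under median scaling (0.782). Gsta2 at 3.21 (adjusted p = 0.0527), Gsta1 at 3.89 (0.0809), Sod2 at -0.90 (0.0939) and Gstm1 at 1.37 (0.107) did not pass. Within the first processing set 14 genes passed, 13 with a positive and 1 with a negative difference, where 3.72% of all features passed (2% and 1.72%). There Gsta1 was at 3.89 (adjusted p = 0.00135), Gsta2 at 3.21 (0.00397), Aldh3a1 at 2.53 (8.55e-05), Gstm1 at 1.37 (0.00257), Gclm at 1.20 (0.00757) and Sod2 at -0.90 (0.0146). For Nqo1, Slc7a11, Srxn1 and Hmox1 the difference was 0.47, 0.36, 0.42 and -0.07 and did not pass there either.

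**Figure D4:**
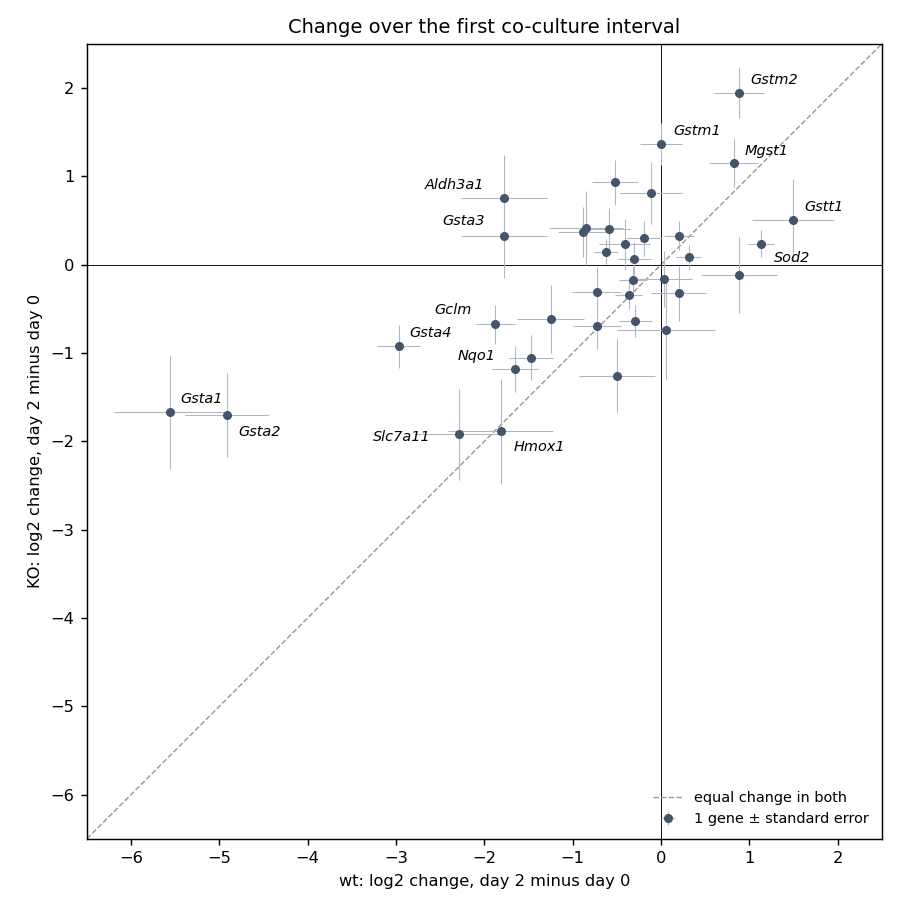
Log2 change from day 0 to day 2 in KO (vertical) against wt (horizontal), 1 point per gene with bars of 1 standard error and a dashed line of equal change. Gsta1 at -5.56 in wt and -1.67 in KO and Gsta2 at -4.91 and -1.70 lie far above the line, while Slc7a11, Srxn1 and Hmox1 lie near it.

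Between day 2 and day 4, 0 of the 37 genes and 0 of all features passed by limma (0% of features), with 3 of the 37 (8.11%) and 4.25% of all features at an unadjusted p under 0.05. Between day 2 and day 6, 5 genes passed, 2 higher and 3 lower, where 3.31% of all features did (1.76% higher and 1.55% lower). These were Gclc, at least 1.55-fold higher because no wt array of day 2 detected it, and Sod2 at 0.29 higher, and Mgst3 at -0.69, Gpx1 at -0.40 and Gpx4 at -0.28 lower, with adjusted p of 0.023 to 0.0483. With the processing set as a block, with the replicate block, and within the first set, 0 of the genes passed. Under median scaling 7 passed, all higher, a count whose share of all features is not given here. That scaling moved the median of all features by 0.35 on the log2 scale. The count was 0 without any 1 of the 4 arrays of day 2, without wt replicate 2, 3 or 4 of day 6, and without KO replicate 3 of day 6. Leaving out replicate 1 of day 6, the only first-set array of that day in its genotype, took the count from 5 to 12 for wt and 14 for KO.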

How the data were processed

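Total RNA of the 18 fibroblast samples was read on single-colour Illumina bead arrays of 45121 probes. The deposited table held, per the file headers, a non-normalized mean bead intensity and a detection p-value for each probe and array. The authors also deposited a log2 matrix, which differed by at most 0.005 from log2 of the quantile-normalized intensities. The scanner software and its settings are not given in the sources used here. The deposited detection p-values had a 1-sided form on 12 arrays and a 2-sided form on 6, which were converted to 1-sided.

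Background correction and quantile normalization used neqc (offset 16) of limma 3.58.1 under R 4.3.3, keeping the 26407 probes with a detection p under 0.01 on at least 2 arrays. Genes were named through the platform annotation, updated to RefSeq symbols, which gave 34763 probes 1 symbol, 18 several and 10340 none. A gene was read by its probe with the highest mean signal, which gave 18128 features. One mean per genotype and day was fitted over all 18 arrays (lmFit, then eBayes with an intensity trend), with Benjamini-Hochberg adjustment over all features and a threshold of 0.05. A probe dim on every array of a group gave only a bound on the fold. On each such array the probe's own signal or the lowest detected signal was used, whichever was higher. Gsta2, not detected on the wt arrays of day 4, read 4.94 and 5.21 there, no lower than the lowest detected signal. The folds given as at least a value thus hold by this rule and are not strict limits. The procedure was tested on simulated data. The number of arrays limits the precision.

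Values on every array are given for the 14 genes with the largest absolute difference between KO and wt among those past the threshold, and for Nfe2l2 and Keap1. The 12 other pathway genes named have the largest differences past the threshold. The genes and lists were chosen with earlier results of these data known. Alternatives changed the background correction, the normalization, the dim-probe filter, the probe rule, the variance prior, the processing set, the replicate block and the arrays included. The labels do not say what a replicate number marks. Same-numbered wt and KO arrays correlated in their deviations from the group means at 0.567, 0.110, 0.249 and 0.157 on day 6, where every pair was over 0.1 and 2 of 4 correlated best with their own number, and at -0.009 on day 2 and -0.112 on day 4. Replicate 1 of day 6 is also the only one of that day in the first processing set.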

Additional observations from a re-analysis of the deposited data

Results flagged for a closer look

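In 37 genes and the 2 day 6 groups of 4 arrays, 4 values, from 3 arrays, stood far from the other 3 of their group. Chance marks about 1 in 20 groups, so this is about the number that chance gives. Gsta1 read 4.54 in wt replicate 4, where it was not detected, against 5.50 to 5.70 in the other wt arrays of day 6. In that wt replicate 4 array Gstm1 read 10.74, against 10.44 to 10.49. Gss read 7.61 in KO replicate 4, against 7.23 to 7.28. Sod3 read 6.40 in wt replicate 3, against 7.15 to 7.25. All 4 values came from arrays of the second processing set, which holds 3 of the 4 day 6 arrays of each genotype. The part of the set in them was not tested. The change of Gsta4 from day 0 to day 2 differed between the genotypes, less negative in KO by 2.04 on the log2 scale (adjusted p = 0.0133 by limma), with 1 day 0 array per genotype.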

How the results depend on the processing

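For 110 results on single genes past the threshold, 3157 alternative values were computed, of which 2831 kept the direction and the call, 321 kept the direction and lost the call, and 5 changed sign. Those 5 were Prdx1 read as the mean over its probes, which gave -0.21 over days 2, 4 and 6, -0.14 at day 6, -0.27 at day 4 and -0.21 at day 2, and Gpx4 between day 2 and day 6 under median scaling (0.049). The cause was not tested.

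Under median scaling the genes past the threshold numbered 13 over days 2, 4 and 6, 13 at day 6, 9 at day 4, 7 from day 0 to day 2 over both genotypes, 4 in wt, 1 in KO and 0 for the difference of these changes. Of all features, 25.3% passed over days 2, 4 and 6 and 17.5% at day 6 under this scaling. Where a count is given without the share of all features, it shows only how the calls of these genes depend on the processing or the arrays. This scaling shifted the median of all features by -0.10 for the genotype difference at day 2, -0.15 for the difference of changes, 0.35 between day 2 and day 6 and 0.10 for the change of the genotype difference between those days. Within the first processing set, which leaves fewer arrays, the counts were 23 for day 0 to day 2 in wt, 18 in KO, 14 for the difference and 0 between day 2 and day 6. Without KO replicates 2 and 4 of day 6 they were 15 in wt, 6 for the difference and 1 between day 2 and day 6. Without the intensity trend they were 3 in KO and 0 between day 2 and day 6. The count for the difference of changes was 3 without background correction and with the deposited matrix, 2 with no filter, with the stricter filter and with the mean over probes, and 7 with the set as a block. Between day 2 and day 6 it was 1 with no filter, 2 with the mean over probes and 0 with the set as a block.

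With the replicate block, 26 genes passed over days 2, 4 and 6, 21 at day 6, 5 for the difference of changes and 0 between day 2 and day 6. Of all features, 41.1% passed with it over days 2, 4 and 6 and 31.7% at day 6. From day 0 to day 2 the block ended the calls of Txnrd1 and Gpx1 over both genotypes and of Gsta2 in KO (adjusted p = 0.0609, 0.057 and 0.0564).

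Leaving out 1 array at a time gave 20 to 26 genes over days 2, 4 and 6, 18 to 20 at day 6, 11 to 16 at day 4, 12 to 16 at day 2, 11 to 18 from day 0 to day 2, 7 to 13 in wt and 2 to 12 in KO. It gave 0 to 5 for the difference of changes, 0 in every case between days 2 and 4, and 0 to 14 between days 2 and 6. No alternative replaces the missing day 0 replicates, a second line per genotype or fibroblasts kept without keratinocytes after day 0.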
